A study of Homo sapiens with 18 samples.

Results

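The genes examined were ANGPTL4, PDK2, PDK4, LPIN1, CPT1A, PLIN2 and GLUL, 7 genes of lipid and fuel use that are known targets of glucocorticoids (GCs). They were taken by symbol from the per-library count files, and all 7 were found among 60642 gene rows and were among the 15298 genes tested. RNA-seq was made from MDA-MB-231 cells, an established triple-negative breast cancer (TNBC) line, transfected with SMART-pool siRNA against PRMT5 (siPRMT5) or against HP1γ (siHP1γ), or with non-specific siRNA (siNS). Each of the 3 cell backgrounds received either 100 nM of the synthetic GC dexamethasone (Dex) or an equal volume of ethanol (Eth), its vehicle, for 8 h, which gives 6 conditions with 3 replicates each and 18 libraries in all. HP1γ, encoded by CBX3, binds methylated lysine on chromatin proteins, and PRMT5 is an arginine methyltransferase. All cells were transfected and come from 1 line, so no untransfected cells and no second line stand beside these values.

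GCs act through the glucocorticoid receptor (GR), a transcription factor that enters the nucleus when it binds the hormone. In fasting and stress, GCs shift tissues from glucose towards fat as fuel, and the genes examined sit at separate steps of that shift. ANGPTL4 is a secreted inhibitor of lipoprotein lipase, and PDK2 and PDK4 are kinases that switch off the pyruvate dehydrogenase complex. LPIN1 makes diacylglycerol from phosphatidate, and CPT1A is an enzyme that prepares fatty acids for entry into mitochondria and oxidation. PLIN2 coats lipid droplets, and GLUL makes glutamine from glutamate and ammonia.

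The libraries held 8682992 to 12472381 counts over genes. PRMT5, at 226 to 262 CPM (counts scaled to a common library size) in the siNS libraries, was at 6.10 to 11.5 CPM in the siPRMT5 libraries, and CBX3, at 220 to 274 CPM in siNS libraries, was at 9.23 to 15.8 CPM in siHP1γ libraries. PRMT5 was also lower in siHP1γ than in siNS cells, at 78.7% of the siNS level with Dex and 83.9% with Eth (edgeR adjusted p = 0.00123 and 0.0111), and within siPRMT5 cells its mean was 7.41 CPM with Eth and 10.5 CPM with Dex. The part of these shifts in the results below was not tested. The mesenchymal markers VIM (5444 to 9592 CPM) and CD44 (506 to 857 CPM) were high, as is known of this line, while CDH1, ESR1, PGR and PTPRC had at most 2 counts in any library, ALB at most 1 and ADIPOQ none. EPCAM was at 8.57 to 14.0 CPM and ERBB2 at 24.5 to 36.0 CPM, and the endothelial gene PECAM1 was at 1.10 to 1.45 CPM in siNS Eth libraries and at 3.92 to 4.53 CPM in siNS Dex libraries.

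Promoter sequence is shown for the 3 genes that were called higher with Dex in any cell background, ANGPTL4, PDK4 and PLIN2, and for GLUL. The level of GLUL was lower after either depletion, as was that of LPIN1, whose sequence is not shown. Each sequence is the 250 bases before the annotated transcription start, on the gene's own strand, from RefSeq on GRCh38.p14. The ANGPTL4 window is chr19:8363905-8364154 (plus strand), that of PDK4 chr7:95596517-95596766 (minus), that of PLIN2 chr9:19127493-19127742 (minus) and that of GLUL chr1:182391791-182392040 (minus, the first of 2 annotated starts). Capitals mark matches to the GR half-site AGAACA, the PPAR half-site AGGTCA or the CCAAT box on either strand, or to the TATA box, as TATAAA or TTATAA, on the gene's strand.
ANGPTL4: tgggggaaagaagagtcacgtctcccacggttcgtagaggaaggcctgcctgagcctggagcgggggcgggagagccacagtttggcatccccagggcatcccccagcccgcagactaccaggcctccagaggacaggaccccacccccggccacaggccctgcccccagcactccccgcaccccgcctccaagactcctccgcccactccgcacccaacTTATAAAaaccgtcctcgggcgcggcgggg
PDK4: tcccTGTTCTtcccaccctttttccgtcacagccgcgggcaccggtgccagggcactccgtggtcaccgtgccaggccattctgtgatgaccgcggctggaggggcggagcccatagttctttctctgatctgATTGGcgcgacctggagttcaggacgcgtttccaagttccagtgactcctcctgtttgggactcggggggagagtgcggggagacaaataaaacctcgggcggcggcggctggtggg
PLIN2: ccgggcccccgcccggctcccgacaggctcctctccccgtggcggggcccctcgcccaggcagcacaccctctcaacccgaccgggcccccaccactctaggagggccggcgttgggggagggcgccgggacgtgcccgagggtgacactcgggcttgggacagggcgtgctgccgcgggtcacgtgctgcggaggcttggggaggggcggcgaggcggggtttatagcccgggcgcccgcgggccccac
GLUL: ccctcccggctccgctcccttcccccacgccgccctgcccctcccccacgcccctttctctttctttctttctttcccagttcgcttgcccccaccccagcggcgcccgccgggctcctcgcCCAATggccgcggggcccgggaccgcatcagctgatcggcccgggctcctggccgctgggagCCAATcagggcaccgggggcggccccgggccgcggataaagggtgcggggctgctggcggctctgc

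In the ANGPTL4 window the capitals are 2 overlapping TATA box matches, 30 and 29 bases before the start, letters that 9.14% of 35116 promoter windows of this length held. The PDK4 window held a GR half-site, read there as TGTTCT, 246 bases before the start, as 12.4% of all windows held one, and a CCAAT box 117 bases before the start, as 32.0% did. The GLUL window held 2 CCAAT boxes, 128 and 66 bases before the start, and the PLIN2 window held none of the letters searched. The whole palindromic GR element, AGAACA and TGTTCT with 3 bases between, was in 1 of the 35116 windows and in none of the 12 windows of the 7 genes. A match is a description of letters, and distal elements lie outside these windows.

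The first comparison asked how each gene responded to Dex in control cells. A gene was called here at an edgeR adjusted p under 0.01 and a change of at least 1.5-fold. In siNS cells 2 of the 7 genes, ANGPTL4 and PLIN2, were called higher and none lower, where 1.65% of all genes tested were called higher. In these bulk libraries, more cells using a gene and more RNA per cell cannot be told apart. The median log2 fold change of the 7 genes was 0.51, against 0.00 for all genes tested. Without the fold limit, 3 of the 7 passed upwards and 1 downwards, against 2.94% and 2.35% of all genes.

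ANGPTL4 had the steepest Dex response of the 7. In siNS cells it was at 0.883, 0.815 and 0.518 CPM in the Eth libraries and at 7.33, 6.32 and 6.08 CPM in the Dex libraries. These Eth values rest on only 5 to 8 counts per library, yet the groups were far apart. The log2 fold change was 3.14 ± 0.29 (SE, n = 3 per condition), an 8.82-fold rise (edgeR adjusted p = 8.01e-09). In siHP1γ cells ANGPTL4 was at 0.636, 0.935 and 1.44 CPM with Eth and at 5.82, 8.31 and 8.93 CPM with Dex, and in siPRMT5 cells at 1.93, 1.996 and 2.30 CPM with Eth and at 14.2, 10.1 and 12.1 CPM with Dex. Each Dex library was above each Eth library of its background, with log2 fold changes of 2.88 ± 0.25 and 2.53 ± 0.21 (SE; adjusted p = 8.27e-09 and 8.87e-10).

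**Figure D1:**
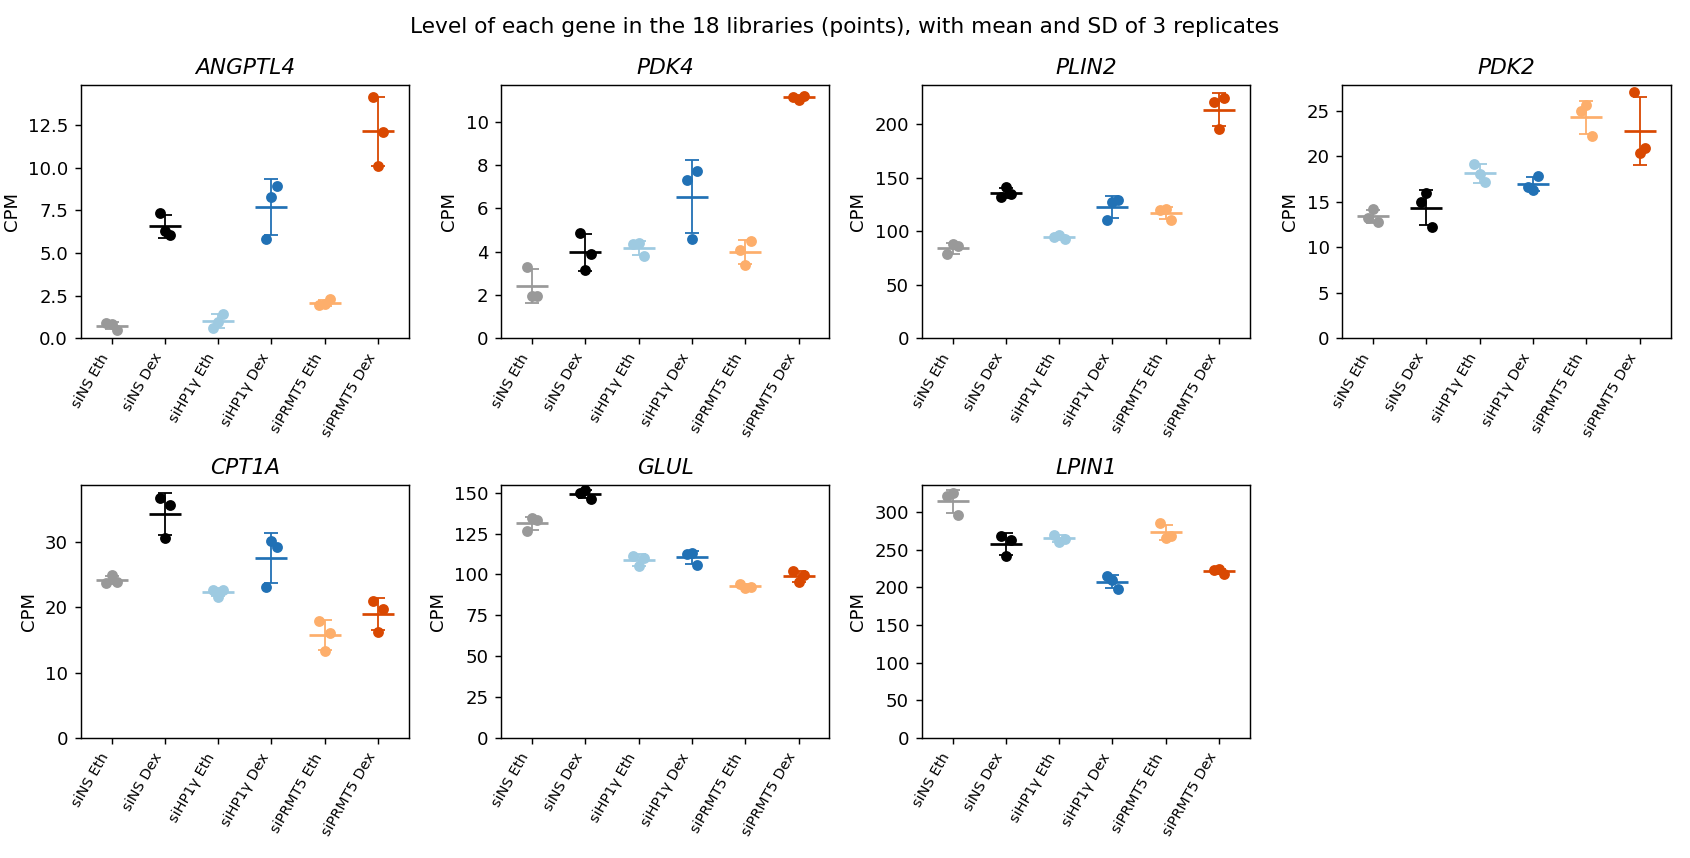
Level of each of the 7 genes (y axis, CPM, from 0) in the 6 conditions (x axis), with 1 point per library and bars for the mean and SD of 3 replicates. ANGPTL4, PDK4 and PLIN2 were highest in siPRMT5 Dex libraries, PDK2 was higher in siPRMT5 than in siNS libraries with either treatment, CPT1A and GLUL were lowest in siPRMT5 libraries, and LPIN1 was lower with Dex in each background.

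PLIN2, the lipid droplet coat, was at 78.6, 87.8 and 86.0 CPM in siNS Eth libraries and at 132, 141 and 135 CPM in siNS Dex libraries. The groups did not overlap, and the change was 1.61-fold (log2 fold change 0.69 ± 0.07, adjusted p = 1.68e-07), close to the fold limit. In siHP1γ cells PLIN2 was at 94.7, 96.2 and 93.0 CPM with Eth and at 111, 127 and 129 CPM with Dex, again without overlap. That 1.29-fold change passed the p threshold (adjusted p = 0.00183) and not the fold limit, and its adjusted p rose above 0.01, to at most 0.0147, when siHP1γ Eth replicate 1 or 3 or siHP1γ Dex replicate 2 or 3 was left out. In siPRMT5 cells PLIN2 was at 120, 121 and 111 CPM with Eth and at 221, 196 and 225 CPM with Dex, a 1.82-fold rise (adjusted p = 1.03e-09).

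PDK4 is the kinase of the pyruvate dehydrogenase complex best known for induction by fasting and GCs. In siNS cells it was at 3.31, 1.94 and 1.97 CPM with Eth and at 4.86, 3.16 and 3.90 CPM with Dex. Here 1 Dex library, replicate 2, lay below the highest Eth library, and the 1.68-fold difference was not called (log2 fold change 0.75 ± 0.25, 95% interval 0.24 to 1.25, adjusted p = 0.0569). In siHP1γ cells PDK4 was at 4.35, 4.40 and 3.78 CPM with Eth and at 7.32, 4.60 and 7.71 CPM with Dex. The Dex libraries were all higher, with replicate 2 close to the Eth level, and the difference was not called (log2 fold change 0.66, adjusted p = 0.0482). Without that library the log2 fold change was 0.85 and PDK4 was called (adjusted p = 0.00669). In siPRMT5 cells PDK4 was at 4.08, 3.40 and 4.50 CPM with Eth and at 11.14, 11.02 and 11.20 CPM with Dex. It rose 2.76-fold there (log2 fold change 1.47 ± 0.19, adjusted p = 1.95e-06), and the 3 Dex libraries were almost equal.

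PDK2, its relative, did not pass the test for Dex in any background. It was at 13.2, 14.2 and 12.7 CPM in siNS Eth libraries and at 14.9, 15.9 and 12.2 CPM in siNS Dex libraries, which overlapped. The 95% intervals of its log2 fold change ran from -0.16 to 0.36 in siNS cells, from -0.34 to 0.14 in siHP1γ cells and from -0.32 to 0.14 in siPRMT5 cells, so a change of 1.5-fold in either direction lay outside each.

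CPT1A, the gate of mitochondrial fatty acid oxidation, was at 23.7, 24.9 and 23.8 CPM in siNS Eth libraries and at 36.7, 30.6 and 35.6 CPM in siNS Dex libraries. All Dex libraries were higher, but the 1.42-fold difference was under the fold limit (log2 fold change 0.51 ± 0.11, adjusted p = 0.00327). Its adjusted p rose above 0.01 when siNS Eth replicate 1 or 3 or siNS Dex replicate 1 or 3 was left out, to at most 0.0299. In siHP1γ cells CPT1A was at 22.7, 21.6 and 22.6 CPM with Eth and at 23.1, 30.2 and 29.2 CPM with Dex, with Dex replicate 1 just above the Eth libraries (1.23-fold, adjusted p = 0.146). In siPRMT5 cells the values were 17.9, 13.4 and 16.1 CPM with Eth and 20.9, 16.3 and 19.8 CPM with Dex, which overlapped (1.19-fold, adjusted p = 0.199).

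LPIN1, which makes the diacylglycerol used for triglyceride synthesis and also acts as a nuclear coregulator, was lower with Dex. It was at 322, 325 and 297 CPM in siNS Eth libraries and at 269, 241 and 263 CPM in siNS Dex libraries. With Dex it stood at 81.9% of its Eth level in siNS cells, 78.4% in siHP1γ cells and 81.1% in siPRMT5 cells (adjusted p = 0.00259, 0.000449 and 0.000893), without overlap between Eth and Dex libraries in any of the 3. None of these differences reached the fold limit. In siNS cells the adjusted p rose above 0.01, to at most 0.0230, without siNS Eth replicate 1 or 2 or siNS Dex replicate 2.

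GLUL was at 126, 134 and 133 CPM in siNS Eth libraries and at 150, 152 and 146 CPM in siNS Dex libraries. The Dex libraries were all higher, by 1.14-fold, and the difference did not pass the test (log2 fold change 0.18, 95% interval 0.06 to 0.31, adjusted p = 0.0572). In siHP1γ cells the interval was -0.10 to 0.15 and in siPRMT5 cells -0.04 to 0.22 (adjusted p = 0.896 and 0.39).

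In siHP1γ cells 1 of the 7 genes, ANGPTL4, was therefore called higher with Dex, against 1.01% of all genes, and in siPRMT5 cells 3 were, ANGPTL4, PDK4 and PLIN2, against 2.69%. Without the fold limit the counts were 2 up and 1 down in siHP1γ cells, where 1.52% and 1.77% of all genes passed, and 3 up and 1 down in siPRMT5 cells, where 4.87% and 5.39% did. The Dex responses of the 3 backgrounds come from separate libraries.

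**Figure D2:**
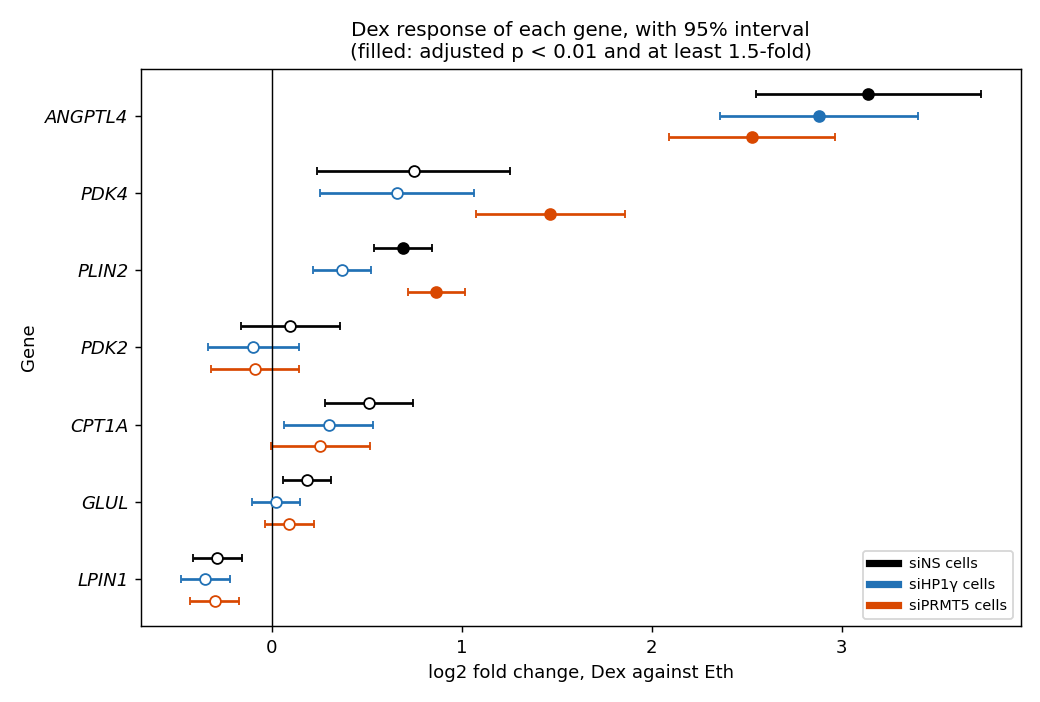
Log2 fold change of each gene with Dex against Eth (x axis) in siNS, siHP1γ and siPRMT5 cells, with 95% intervals from the edgeR fit and filled points for called genes. ANGPTL4 lies between 2.53 and 3.14 in the 3 backgrounds, PDK4 is filled in siPRMT5 cells, and LPIN1 lies between -0.35 and -0.29.

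The next comparison asked whether either depletion changed the Dex response itself, as an interaction term in the same fit, called at an adjusted p under 0.05. By edgeR 0 of the 7 genes were called for HP1γ, where 0.399% of all genes were, and 0 for PRMT5, where 3.8% were. DESeq2 also called 0 in each. Among the 7 genes PLIN2 had the smallest unadjusted p for HP1γ and PDK4 for PRMT5, and neither passed after adjustment. For PLIN2 the response in siHP1γ cells was smaller than in siNS cells by a log2 difference of -0.32 (95% interval -0.54 to -0.10, unadjusted p = 0.0053, adjusted p = 0.131 by edgeR). For PDK4 the response in siPRMT5 cells was larger by 0.72 (0.06 to 1.38, unadjusted p = 0.034, adjusted p = 0.216 by edgeR). That PDK4 was called with Dex in siPRMT5 cells and not in siNS cells is therefore not shown to be a difference between them. For ANGPTL4 the intervals were wide, -1.19 to 0.67 for HP1γ and -1.46 to 0.23 for PRMT5, since its Eth libraries had few counts. LPIN1 had the closest responses, with intervals of -0.24 to 0.12 and -0.20 to 0.17.

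PRMT5 depletion moved all 7 genes at an adjusted p under 0.05, and in 2 directions. In Dex-treated cells ANGPTL4, PDK2, PDK4 and PLIN2 were higher in siPRMT5 than in siNS cells and LPIN1, CPT1A and GLUL were lower, where 20.6% of all genes were called higher and 21.9% lower. Without Dex the same 4 were higher and the same 3 lower, where 20.6% and 21.6% of all genes were called. These comparisons share the siNS Dex or siNS Eth libraries with the Dex response and with the HP1γ comparisons, so their values are set side by side.

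PDK4 differed most with Dex, at 276% of its siNS level (log2 fold change 1.47 ± 0.19, adjusted p = 5.25e-07). Without Dex it was at 168% (0.75 ± 0.25, adjusted p = 0.0187), a call lost when siNS Eth replicate 2 or 3 or siPRMT5 Eth replicate 3 was left out (adjusted p = 0.0891, 0.0876 and 0.0798). ANGPTL4 was at 183% of the siNS level with Dex (0.87 ± 0.17, adjusted p = 0.000148) and at 280% without (1.48 ± 0.37, adjusted p = 0.00196). No siPRMT5 library overlapped a siNS library of the same treatment for either gene.

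PDK2, which had not responded to Dex, was at 25.0, 25.6 and 22.2 CPM in siPRMT5 Eth libraries and at 27.1, 20.4 and 20.9 CPM in siPRMT5 Dex libraries. All 6 lay above all 6 siNS libraries, of which the highest was at 15.9 CPM. The change was 1.59-fold with Dex and 1.81-fold without (adjusted p = 4.78e-05 and 2.52e-06). PLIN2 was 1.57-fold higher with Dex and 1.39-fold higher without (adjusted p = 6.31e-08 and 1.28e-05).

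Of the genes that fell, CPT1A was at 55.0% of its siNS level with Dex and 65.6% without (adjusted p = 1.17e-06 and 0.000291). Its Dex-treated siPRMT5 libraries, at 20.9, 16.3 and 19.8 CPM, were below even the siNS Eth libraries, of which the lowest was at 23.7 CPM. GLUL was at 94.1, 91.8 and 92.4 CPM in siPRMT5 Eth libraries and at 102, 95.2 and 99.5 CPM in siPRMT5 Dex libraries, which is 70.7% and 66.3% of the siNS level (adjusted p = 4.1e-07 and 1.96e-08). LPIN1 was at 285, 266 and 268 CPM with Eth and at 223, 224 and 218 CPM with Dex in siPRMT5 cells, a smaller difference of 86.8% and 85.9% of the siNS level (adjusted p = 0.00984 and 0.00605).

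HP1γ depletion moved fewer of the 7. With Dex, PDK4 was called higher and LPIN1, CPT1A and GLUL lower in siHP1γ than in siNS cells, where 11.7% of all genes were called higher and 12.3% lower. Without Dex, PDK2 and PDK4 were higher and LPIN1 and GLUL lower, where 16.5% and 15.2% of all genes were called.

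PDK4 was at 164% of its siNS level with Dex and 174% without (adjusted p = 0.00974 and 0.0141). With Dex the libraries overlapped, since siHP1γ Dex replicate 2 (4.60 CPM) was below siNS Dex replicate 1 (4.86 CPM), and the call was lost without siNS Dex replicate 2 (adjusted p = 0.0643). Without Dex it was lost without siNS Eth replicate 2 or 3 (adjusted p = 0.0718 and 0.0841). PDK2 was at 19.19, 18.05 and 17.11 CPM in siHP1γ Eth libraries, 1.35-fold above siNS cells (adjusted p = 0.00833). With Dex it was at 16.6, 16.3 and 17.8 CPM, above every siNS Dex library, and did not pass the test (log2 fold change 0.24, 95% interval -0.01 to 0.49, adjusted p = 0.155).

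GLUL was at 111, 105 and 110 CPM in siHP1γ Eth libraries and at 112, 113 and 106 CPM in siHP1γ Dex libraries, all below the siNS libraries. This was 82.9% of the siNS level without Dex and 74.1% with Dex (adjusted p = 0.00145 and 7.98e-06). LPIN1 was at 270, 261 and 265 CPM with Eth and at 215, 210 and 198 CPM with Dex, or 84.3% and 80.7% of the siNS level (adjusted p = 0.0035 and 0.000609). CPT1A was at 79.8% of the siNS level with Dex (adjusted p = 0.0313) and at 92.3% without (adjusted p = 0.491). The CPT1A call was lost without siNS Dex replicate 1 or 3 or siHP1γ Dex replicate 1 (adjusted p = 0.13, 0.106 and 0.192), when scaled by library size only (adjusted p = 0.114), and when fitted on the compared libraries only (adjusted p = 0.0543).

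ANGPTL4 did not pass the test for HP1γ depletion, with log2 fold changes of 0.21 with Dex (95% interval -0.16 to 0.57) and 0.47 without (-0.40 to 1.33). Nor did PLIN2, at -0.15 with Dex (adjusted p = 0.138) and 0.17 without (adjusted p = 0.0905), where scaling by library size only gave 0.23 and a call (adjusted p = 0.0246). Its siHP1γ libraries were all below the siNS libraries with Dex and all above them without Dex.

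**Figure D3:**
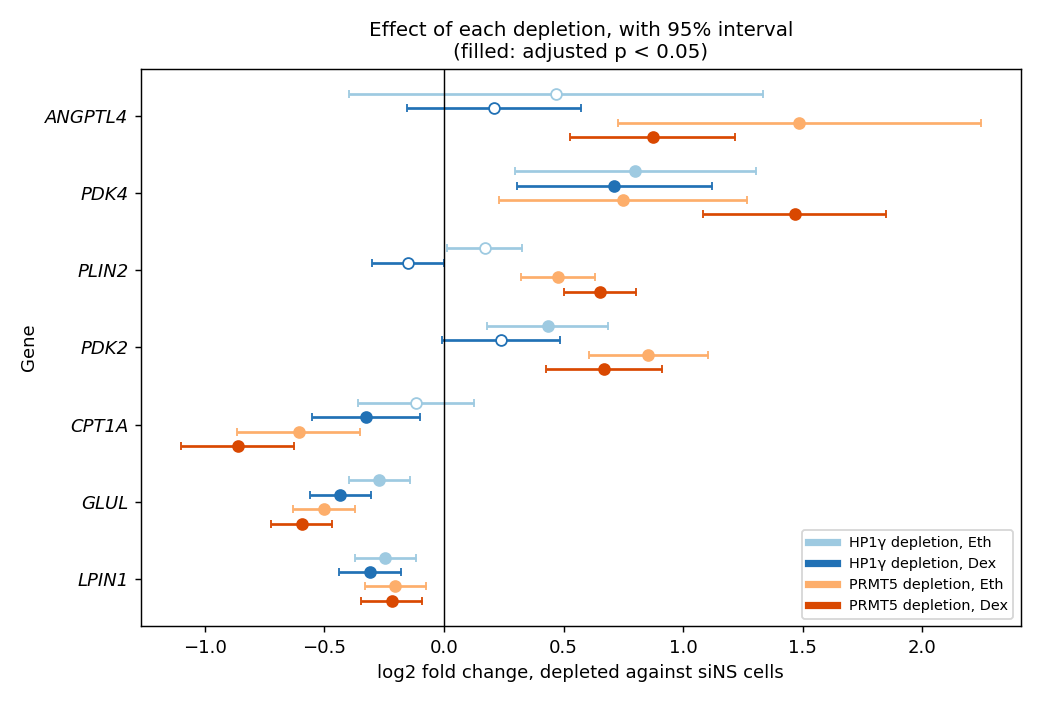
Log2 fold change of each gene in depleted against siNS cells (x axis) for both depletions, with and without Dex, with 95% intervals and filled points for called genes. PRMT5 depletion puts ANGPTL4, PDK4, PLIN2 and PDK2 to the right of 0 and CPT1A, GLUL and LPIN1 to the left with either treatment.

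Ordered by mean level over the 6 conditions, the genes fell into different sequences. For PLIN2 the order rose from siNS Eth through siHP1γ Eth and siPRMT5 Eth to siHP1γ Dex, siNS Dex and siPRMT5 Dex, and in it only siPRMT5 Eth and siHP1γ Dex overlapped as neighbours. ANGPTL4 kept all Eth conditions below all Dex conditions, with overlap between siNS and siHP1γ at each treatment. For GLUL the order followed the siRNA, from siPRMT5 through siHP1γ to siNS, with overlap only between Eth and Dex in siHP1γ cells. PDK2 followed the siRNA in the opposite order, from siNS through siHP1γ to siPRMT5, with Eth and Dex overlapping within siNS and siHP1γ cells and within siPRMT5 cells. Among the lowest 4 PDK4 conditions, in the order siNS Eth, siNS Dex, siPRMT5 Eth and siHP1γ Eth, neighbours overlapped, and siHP1γ Eth did not overlap siHP1γ Dex, the next above. For CPT1A the neighbours siPRMT5 Eth and siPRMT5 Dex overlapped, as did siNS Eth and siHP1γ Dex, and for LPIN1 siNS Dex overlapped siHP1γ Eth, which overlapped siPRMT5 Eth.

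Across the 18 libraries, which share the 6 conditions, log2 CPM of ANGPTL4 and PLIN2 had a Pearson r of 0.87, PDK4 and PLIN2 0.80, and CPT1A and GLUL 0.84, while PDK2 and GLUL had -0.84. Among the 11410 genes that averaged 5 CPM or more, the 2 most like ANGPTL4 over the 18 libraries were RHOB (r = 0.973) and MAP2K1 (0.968). For PLIN2 they were SNX8 (0.983) and NTN4 (0.972), for PDK4 ELL2 (0.944) and ZNF281 (0.930), and for PDK2 AP1S1 (0.937) and PSAP (0.920). CPT1A was nearest to MAPKAPK3 (0.947) and AIF1L (0.937), GLUL to NOLC1 (0.963) and CABLES2 (0.955), and LPIN1 to GPRC5A (0.922) and UBASH3B (0.916). These correlations describe 18 libraries that share 6 conditions, and they carry no test.

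Of 19 relatives of the 7 genes, 7 had enough counts to be tested. For this list and those below, 1.65%, 1.01% and 2.69% of all genes were called higher with Dex in siNS, siHP1γ and siPRMT5 cells. With Dex in siNS cells 1 was called, LPIN3, another phosphatidate phosphatase, at 7.94 ± 1.02 CPM with Eth and 13.2 ± 1.85 CPM with Dex (SD, n = 3; log2 fold change 0.74, adjusted p = 0.00184 by edgeR), while LPIN1 was lower. ANGPTL2, a secreted relative of ANGPTL4, was called lower with Dex in siPRMT5 cells (-1.04, adjusted p = 4.29e-06), where ANGPTL4 rose. BCKDK, the kinase that inactivates branched-chain ketoacid dehydrogenase, was lower after PRMT5 depletion, at 14.2 ± 0.55 CPM against 59.9 ± 1.70 CPM with Dex (SD, n = 3, log2 fold change -2.07, adjusted p = 6.38e-15). Its relatives PDK1, PDK2 and PDK4 were higher, and PDK3 was not called (log2 fold change 0.12, edgeR adjusted p = 0.307).

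Of the pyruvate dehydrogenase complex, its phosphatases and the mitochondrial pyruvate carrier, which PDK2 and PDK4 act on or beside, 0 of 10 genes were called by edgeR for Dex in any background, with medians of -0.04, 0.03 and 0.02 on the log2 scale. Below the fold limit, PDHX was lower with Dex in siNS cells (-0.30, edgeR adjusted p = 0.00319). Without that limit 2.35% of all genes passed downwards there. PRMT5 depletion with Dex gave 3 higher and 1 lower of the 10, where 20.6% and 21.9% of all genes were called, with PDHX highest at 0.32 (adjusted p = 0.000302). HP1γ depletion with Dex gave 1, the phosphatase PDP1 (0.25, adjusted p = 0.00513), where 11.7% of all genes were called higher.

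Of 24 genes of fatty acid oxidation, 0 were called for Dex in siNS or siHP1γ cells by edgeR and 1 in siPRMT5 cells. That was ACSL1, which activates long-chain fatty acids, at 22.5 ± 1.20 CPM with Eth and 42.0 ± 3.60 CPM with Dex (SD, n = 3; log2 fold change 0.90, adjusted p = 1.11e-07). In siNS cells it was at 44.5 ± 2.29 CPM and 52.3 ± 3.93 CPM, and the difference in response passed the test (0.67, adjusted p = 0.00469). In siPRMT5 cells without Dex it lay below the siNS level (-0.98, adjusted p = 1.19e-08). With Dex, PRMT5 depletion gave 8 higher and 3 lower of the 24 (median 0.13, against 0.00 for all genes tested), where 20.6% and 21.9% of all genes were called. Among them were ACACB, which makes the malonyl-CoA that inhibits CPT1A (1.03, adjusted p = 8.8e-06), MLYCD, which removes it (0.81, adjusted p = 8.83e-06), and HADHB of the trifunctional protein (-0.67, adjusted p = 1.2e-08). HP1γ depletion with Dex gave 1 higher, CPT2 (0.47, adjusted p = 0.00201), and 3 lower, with ACSL3 at -1.22 (adjusted p = 2.2e-10), against 11.7% and 12.3% of all genes.

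Of 26 genes of lipid storage and lipolysis, 19 were tested. CIDEC, which enlarges lipid droplets, was the 1 called higher with Dex in siNS and in siHP1γ cells. It had 0 counts in each siNS Eth library and 3, 5 and 7 counts with Dex, and 0, 0 and 1 counts with Eth and 6, 4 and 9 counts with Dex in siHP1γ cells. In siPRMT5 cells it had 1, 0 and 1 counts with Eth and 30, 36 and 32 counts with Dex, more than in any other library. No fold change is given, since its Eth libraries hold at most 1 count.

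PRMT5 depletion with Dex called 8 of the 19 higher and 6 lower, against 20.6% and 21.9% of all genes. ABHD5, the coactivator of adipose triglyceride lipase, fell from 121 ± 1.24 CPM in siNS Dex to 38.3 ± 1.98 CPM in siPRMT5 Dex libraries (SD, n = 3; log2 fold change -1.65, adjusted p = 1.82e-14). AGPAT2, an acyltransferase of triglyceride synthesis (-1.20, adjusted p = 4.63e-08), and MGLL, the monoglyceride lipase (-1.01, adjusted p = 4.32e-12), fell too. Without Dex ABHD5 was at 21.8% of the siNS level in siPRMT5 cells (-2.20, edgeR adjusted p = 2.85e-16). ABHD5 also rose with Dex in siPRMT5 cells (0.69, adjusted p = 2.13e-06), by more than in siNS cells (difference 0.54, adjusted p = 0.0079), and VLDLR, the very-low-density lipoprotein receptor, fell with Dex there (-0.78, adjusted p = 9.67e-08; difference -0.57, adjusted p = 0.00685). HP1γ depletion with Dex called 5 higher and 2 lower, against 11.7% and 12.3% of all genes, with DGAT2, an enzyme of the last step of triglyceride synthesis, at 1.05 (adjusted p = 2.4e-05) and MGLL at -0.51 (adjusted p = 1.93e-06).

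**Figure D4:**
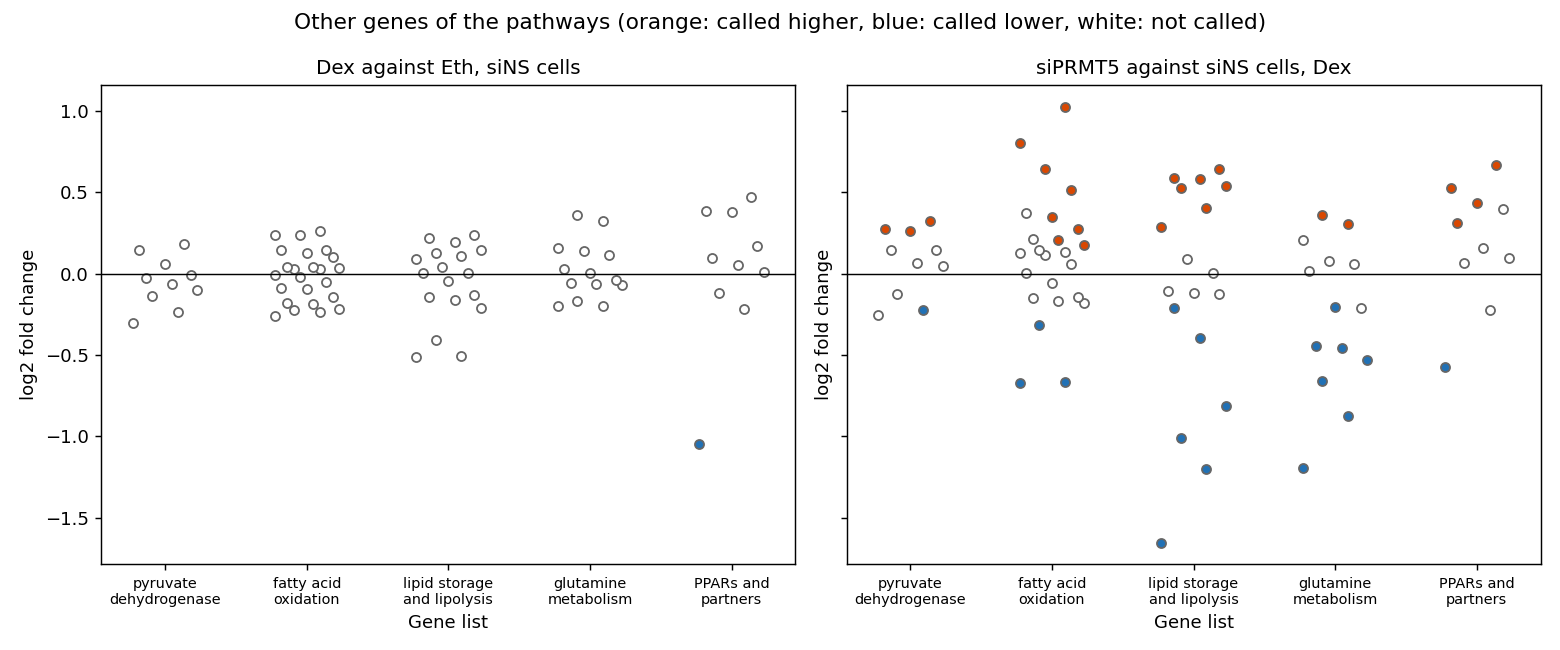
Log2 fold change (y axis, the same scale in both panels) of the tested genes of 5 pathway lists (x axis, 1 point per gene, CIDEC left out) with Dex in siNS cells and after PRMT5 depletion with Dex. With Dex alone the only called point is PPARGC1A at -1.05, while PRMT5 depletion, for which 20.6% of all genes were called higher and 21.9% lower, gives called points in both directions.

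Of 15 genes of glutamine metabolism beside GLUL, 14 were tested. For Dex, edgeR called 0 in siNS and siHP1γ cells and 2 in siPRMT5 cells, the amino acid transporters SLC38A2 (0.71, adjusted p = 2.55e-06) and SLC38A1 (0.64, adjusted p = 7.88e-06). After PRMT5 depletion with Dex 2 were higher and 7 lower (median -0.21, against 0.00 for all genes tested), where 20.6% and 21.9% of all genes were called. Among the lower were CAD, which uses glutamine to start pyrimidine synthesis (-0.87, adjusted p = 8.23e-09), SLC38A1 (-0.66, adjusted p = 1.89e-06) and the glutamine transporter SLC1A5 (-0.53, adjusted p = 4.59e-06). Without Dex SLC38A1 also lay below the siNS level in siPRMT5 cells (-1.18, adjusted p = 1.08e-10 by edgeR). Its Dex response was larger there than in siNS cells (difference 0.53, adjusted p = 0.0183 by edgeR). After HP1γ depletion with Dex GFPT1, which uses glutamine to make hexosamines, was higher (0.40, adjusted p = 0.000727 by edgeR), while GLUL itself was lower.

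Of 14 genes for PPARs, fatty acid-sensing receptors for which ANGPTL4, PDK4, CPT1A and PLIN2 are known targets, and for their partners, 10 were tested. PPARGC1A, a coactivator of oxidative genes, was the 1 called for Dex, and it fell in siNS cells from 9.72 ± 1.57 to 4.72 ± 0.88 CPM (SD, n = 3; -1.05, adjusted p = 0.000202), in siHP1γ cells (-0.94, adjusted p = 0.000524) and in siPRMT5 cells (-0.79, adjusted p = 0.00142). Below the 1.5-fold limit, PPARGC1B (0.47), PPARG (0.38) and PPARA (0.38) were higher with Dex in siNS cells (edgeR adjusted p = 0.00136, 0.000769 and 0.00462). Without that limit 2.94% of all genes passed upwards there. PRMT5 depletion with Dex gave 4 higher, among them FOXO1 (0.67, adjusted p = 0.000115) and PPARG (0.53, adjusted p = 1.8e-06), and 1 lower, PPARD (-0.57, adjusted p = 3.6e-06), against 20.6% and 21.9% of all genes. HP1γ depletion with Dex gave PPARGC1B (-0.53, adjusted p = 0.000172) and PPARA (-0.39, adjusted p = 0.00164) lower and FOXO3 (0.29, adjusted p = 0.0173) higher, against 12.3% and 11.7% of all genes.

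Beside these, 8 of 9 tested reference GC targets, such as TSC22D3 (log2 fold change 3.64), KLF9 (2.82), MT2A (2.10) and FKBP5 (2.15), were called higher with Dex in siNS cells, with a median of 2.10. ANGPTL4, at 3.14, lay above that median, and the other 6 genes of fuel metabolism, the highest of them PDK4 at 0.75 and PLIN2 at 0.69, lay below it. PRMT5 depletion with Dex called 8 of the 9 reference targets higher and 0 lower, against 20.6% and 21.9% of all genes. HP1γ depletion with Dex called 0 higher and 6 lower, against 11.7% and 12.3%. The Dex response was smaller for 4 of the 9 in siHP1γ cells and larger for 3 in siPRMT5 cells. Of all genes, 0.399% and 3.8% were called for these 2 interactions.

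The 7 genes lie, on hg38 with the annotation of GENCODE 44, at chr19:8363289-8374370 (ANGPTL4), chr17:50094737-50112152 (PDK2), chr7:95583499-95596516 (PDK4), chr2:11677595-11827409 (LPIN1), chr11:68754620-68844410 (CPT1A), chr9:19108375-19149290 (PLIN2) and chr1:182378098-182392206 (GLUL). Other genes overlap PDK2 (3), PDK4 (1, antisense) and LPIN1 (4), and since it is not stated whether reads were counted by strand, their reads cannot be told apart from those of an overlapping antisense gene. Of the overlapping genes SAMD14 and MIR548S had at most 1 count in any library, and the GLUL pseudogenes GLULP3 to GLULP6 had at most 6.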

How the data were processed

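The deposited files hold raw counts per gene for each of the 18 libraries, which per the labels the authors made from total RNA with Lexogen kits. Their processing notes name Bowtie2 2.4.2, HTSeq 0.9.1 and DESeq2 2.11.40.7 with hg38, and the annotation, read length and strand setting are not given in the sources used here. Bowtie2 does not split reads across introns, which can lower counts at short exons. The authors' table of fold changes and p-values was not used.

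Counts were fitted with edgeR 4.0.16 (quasi-likelihood, R 4.3.3) on all 18 libraries with 1 mean per condition (12 residual df), TMM scaling and filterByExpr, which left 15298 genes, with Benjamini-Hochberg adjustment over all of them. CPM uses the TMM-scaled library sizes. Intervals are 95% intervals from the fit. Alternatives were DESeq2 1.42.0, other scalings and filters, a replicate block and leaving out each library. Counts were also simulated with 200 genes changed 2-fold, all averaging at least 5 CPM. Of these, 196 were recovered for Dex in siNS cells (15047 genes tested), 200 for PRMT5 depletion with Dex (15037) and 186 for the PRMT5 interaction (15020). False calls made up 0.508%, 5.21% and 5.58% of the genes called. Changes under 2-fold and genes under 5 CPM were not simulated, so recovery of those is not known. The simulated share of changed genes was also far below that called for PRMT5 depletion with Dex (20.6% higher and 21.9% lower). Recovery and false calls at such a share are not known. The labels do not tie replicate numbers to a shared batch or day, and same-numbered libraries did not all deviate together, so the main fit has no block.

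Named genes are the 7 genes, their 2 nearest patterns, list genes called for Dex in siNS cells, and the 3 largest called changes per list with a mean of at least 5 CPM elsewhere. The result of 1 list gene is not reported here. The genes and lists were chosen with earlier results of these data known. The paper calls the replicates biological, and the labels do not name their cultures.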

Additional observations from a re-analysis of the deposited data

How the results depend on the processing

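Of 427 values of single genes recomputed under another tool, scaling, filter, block or set of libraries, 423 kept their direction and side of the threshold. Requiring at least 10 counts in every library left 1 of the 7 genes called with Dex in siNS cells and 0 in siHP1γ cells. That filter removes ANGPTL4 (lowest count 5). ANGPTL4 thus also drops out of the calls for Dex in siPRMT5 cells and for PRMT5 depletion with and without Dex. A fold limit of 2 gave 1 in siNS cells. PLIN2, at 1.61-fold there and 1.82-fold in siPRMT5 cells, is called in neither at that limit. Those of the 427 that changed were calls for CPT1A, PLIN2 and LPIN1. CPT1A after HP1γ depletion with Dex and PLIN2 after HP1γ depletion without Dex are given above. The LPIN1 call after PRMT5 depletion without Dex was lost with no filter on low counts (edgeR adjusted p = 0.0515). Of the Dex differences under the fold limit, LPIN1 in siNS cells had an adjusted p of 0.0120 with no filter and PLIN2 in siHP1γ cells one of 0.0132 when fitted on the compared libraries only. No scaling moved the median of all genes by more than 0.0815 on the log2 scale.

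Leaving out each library in turn gave 1134 values, of which 1113 kept direction and side. The number of the 7 genes called ranged from 1 to 2 for Dex in siHP1γ cells, from 3 to 4 for either HP1γ depletion and from 6 to 7 for PRMT5 depletion without Dex, with the libraries named above. The sign turned only for differences that were not called. The log2 fold change of GLUL with Dex in siHP1γ cells ranged from -0.0025 to 0.056, the HP1γ interaction from -0.47 to 0.11 for ANGPTL4 and from -0.37 to 0.11 for PDK4, and the PRMT5 interaction of LPIN1 from -0.053 to 0.029. The cause was not tested.

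With the replicate number as a replicate block the counts of the 7 genes called stayed at 2, 1 and 3 for Dex in siNS, siHP1γ and siPRMT5 cells, 4 and 7 for HP1γ and PRMT5 depletion with Dex, 4 and 7 without, and 0 for both interactions. Deviations of same-numbered libraries had correlations of -0.44 to 0.60 over 45 pairs, of which 13 were over 0.1. Pairs with different numbers had much the same spread, -0.61 to 0.59 over 90 pairs, of which 25 were over 0.1. Still, 12 of 18 libraries correlated best with a library of their own number in another condition, a hint of pairing from the data, not the design. The counts set the precision: ANGPTL4 and PDK4 had as few as 5 and 19 counts in a library, and their intervals are the widest of the 7 genes.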
